A study of Homo sapiens with 6 samples.

Results

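The transcripts of 10 chemokine genes were followed in mitotic ERRAS cells, namely IL8 (CXCL8), CXCL1, CXCL2, CXCL3, CXCL5, CXCL6, CXCL12, CCL2, CCL7 and CCL20. They were taken by symbol from the 63009 genes listed with a single FPKM value per library (a level in which mapped fragments are scaled for transcript length and library size). ERRAS cells are early-passage IMR90 cells, a widely used strain of primary human lung fibroblasts, that stably carry RasV12 fused to the estrogen receptor (ER:RAS) and were kept in G418, so that oncogenic Ras is switched on by tamoxifen. Both groups carried this construct and were grown at 3% oxygen in DMEM with 20% fetal calf serum. The 3 Ras-induced libraries came from cells given 100 nM tamoxifen, as the labels state the dose, and expressing RasV12 for 4 days; the study's methods name 4-hydroxytamoxifen and give its dose in ng/ml, so compound and dose differ between the sources. The 3 control libraries came from the same cells left uninduced. Before harvest all cells were arrested in mitosis with 1 µM DME (dimethylenastron), an inhibitor of the kinesin Eg5, and the detached cells, of which over 90% were mitotic, were collected. The RNA was therefore that of cells still able to enter mitosis, and no library of senescent, non-dividing cells entered the comparison.

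Chemokines are small secreted proteins that attract cells along a gradient through receptors on the target cell. The CXC chemokines with a Glu-Leu-Arg (ELR) motif, here IL8, CXCL1, CXCL2, CXCL3, CXCL5 and CXCL6, bind CXCR2 (IL8 and CXCL6 also CXCR1) and attract neutrophils, whereas CXCL12, which lacks the motif, binds CXCR4 and CXCR7 and is produced constitutively by stromal fibroblasts. CCL2 and CCL7 attract monocytes through CCR2, and CCL20 attracts CCR6-bearing lymphocytes and dendritic cells. Several of the ELR chemokines and CCL2 are known components of the secretory phenotype of senescent fibroblasts, where NF-kB and C/EBPβ drive their transcription.

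The transgene was checked first through HRAS, which had 1174, 1176 and 1140 FPKM in control and 1439, 1847 and 1473 FPKM in Ras-induced libraries, a level to which the endogenous gene and the transgene can both contribute. The cells expressed fibroblast markers (7 of 7 above 0 in every library, with a summed level of 4735 to 5313 FPKM in control and 3096 to 4324 FPKM in Ras-induced libraries). Of these, 4 were lower without overlap in Ras-induced cells, beside 12.8% of all tested genes. THY1 (log2 fold change −1.19, limma adjusted p = 0.00279) and COL1A2 (−1.30, limma adjusted p = 0.0101) were called, beside 5.67% of all tested genes called lower. COL1A1 (limma adjusted p = 0.0501) and COL3A1 (0.0553) missed the threshold. VIM had control and Ras-induced means of 2149 and 2248 FPKM, PDGFRB of 70.0 and 70.0 FPKM and S100A4 of 77.0 and 87.3 FPKM, with groups that overlapped. Mitotic markers were abundant in all libraries, but their summed level was 1570 to 1634 FPKM in control and 1289 to 1432 FPKM in Ras-induced libraries. All 6 were lower without overlap, beside 12.8% of all tested genes. PLK1 (log2 fold change −0.27, limma adjusted p = 0.0475), BUB1 (−0.30, 0.0418) and CENPF (−0.50, 0.0208) were called, beside 5.67% of all tested genes called lower. CCNB1, CDC20 and AURKA were not altered. Leukocyte markers, which matter here because leukocytes make the same chemokines, summed to between 0.389 and 0.902 FPKM over 7 genes; PTPRC did not exceed 0.0140 FPKM in any library and ITGAM and CD3E were listed at 0 in all 6. Endothelial markers summed to at most 0.0988 FPKM over 3 genes, with PECAM1 at 0 throughout. Epithelial markers summed to 9.69 to 19.6 FPKM over 3 genes, most of it KRT5, and EPCAM was lower in Ras-induced (0.167 to 0.424 FPKM) than in control libraries (0.880 to 1.80 FPKM); the part of these shifts in marker levels in the results was not tested. Relative depth, read from the steps between low values, ranged from 0.85 to 1.17 of that of control library 1.

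Of the 10 chemokines, 5 averaged 1 FPKM or more across all 6 libraries and were tested (IL8, CXCL1, CXCL5, CXCL12 and CCL2). Genes were tested on log2(FPKM + 1) with limma, and a gene with a Benjamini-Hochberg adjusted p of at most 0.05 over all 13993 tested genes is called altered. IL8 and CXCL1 were higher and CXCL12 was lower in Ras-induced cells, and CCL2 and CXCL5 were not altered. CXCL1 passed the filter only through the Ras-induced group and CXCL12 only through the control group, so their passing and their difference are not independent and the count of calls is a description. The background was 16.7% of all tested genes altered, 11% higher and 5.67% lower. The median log2 fold change of the 5 tested chemokines was 0.42, which is the value of CCL2, beside 0.10 over all tested genes. That median was 0.27 without control library 1, 0.15 without control library 2, 1.22 without control library 3 and 0.69 without Ras-induced library 2. The other 5 chemokines lay below the filter and are given by their values.

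**Figure D1:**
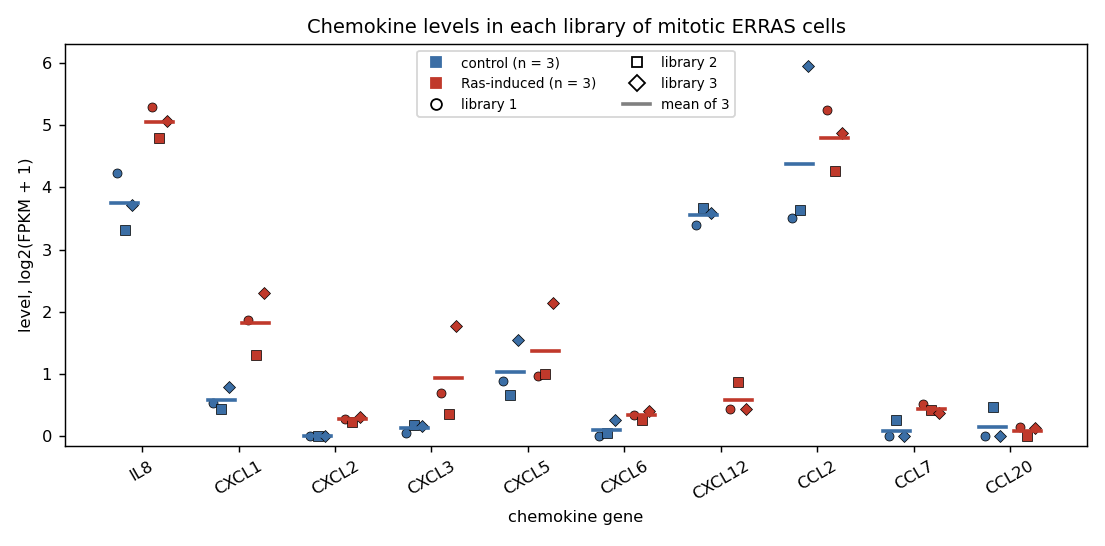
Level of each chemokine gene (horizontal axis) as log2(FPKM + 1) (vertical axis) in 3 control (blue) and 3 Ras-induced (red) libraries; symbols mark the library number and bars the mean of 3. IL8 and CXCL1 sit higher and CXCL12 sits lower in all Ras-induced libraries, and CCL2 in control library 3 (61.0 FPKM) sits above all other values of that gene.

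IL8 attracts and activates neutrophils and was the most abundant of the ELR chemokines. Its level was 17.7, 8.90 and 12.2 FPKM in the control libraries and 38.0, 26.7 and 32.6 FPKM in the Ras-induced libraries. All 3 Ras-induced libraries lay above all 3 controls. The means were 12.9 ± 4.47 and 32.4 ± 5.65 FPKM (SD, n = 3 each), a 2.51-fold difference, and the log2 fold change was 1.30 (95% interval 0.71 to 1.88, SE 0.24, limma adjusted p = 0.0172). IL8 moved from above 51.4% of all tested genes in control cells to above 72.1% in Ras-induced cells. The call was held in 8 of 14 alternative settings, with an adjusted p of 0.00759 to 0.0754 across them; it was lost without control library 2, control library 3, Ras-induced library 1 or Ras-induced library 3, and in both fits without the filter on low values (adjusted p = 0.0540, and 0.0501 with a pseudocount of 0.1 FPKM).

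CXCL1 (GROα), a neutrophil attractant that acts through CXCR2, was expressed at a far lower level than IL8. It passed the filter only through the Ras-induced group, in which it was high. It had 0.445, 0.351 and 0.741 FPKM in control and 2.66, 1.47 and 3.91 FPKM in Ras-induced libraries. The groups did not overlap, and the lowest Ras-induced library still lay above the highest control. The means were 0.512 ± 0.203 and 2.68 ± 1.22 FPKM (SD, n = 3 each), a 5.23-fold difference. On the log2(FPKM + 1) scale, which understates changes at such levels, the log2 fold change was 1.23 (95% interval 0.55 to 1.92, SE 0.29, limma adjusted p = 0.0327), and with a pseudocount of 0.1 FPKM it was 2.13. The call was held in 6 of 13 alternatives (adjusted p of 0.0228 to 0.10) and was lost when any library but Ras-induced library 2 was left out and in both fits without the filter on low values.

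CXCL2 and CXCL3 are the closest paralogs of CXCL1 and bind the same receptor. CXCL2 was listed at 0 in all 3 control libraries, and Ras-induced libraries 1 to 3 had 0.209, 0.176 and 0.243 FPKM. CXCL3 had 0.0423, 0.140 and 0.123 FPKM in control and 0.616, 0.286 and 2.40 FPKM in Ras-induced libraries. For neither gene did the groups overlap, but CXCL3 varied widely among Ras-induced libraries, library 3 being above the other two by a wide margin. A fit without the filter called CXCL2 (limma adjusted p = 0.0142) and did not call CXCL3 (limma adjusted p = 0.303). CXCL2 entered that fit only through the Ras-induced group and had no spread among controls, so its call is a description. Among the 6330 genes with a mean of 0.1 to 1 FPKM, 9.97% lay higher in all Ras-induced than in all control libraries. The longest annotated coding transcripts of CXCL1 and CXCL2 were identical at 90.7% of aligned bases and shared an exact stretch of 77 bases, and those of CXCL2 and CXCL3 shared one of 97 bases, so that reads can be split between these genes and their separate levels are uncertain.

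CXCL5 and CXCL6 form a second pair of related ELR chemokines, identical at 83.5% of aligned transcript bases. CXCL5 had 0.856, 0.581 and 1.91 FPKM in control and 0.954, 0.991 and 3.41 FPKM in Ras-induced libraries. The groups overlapped, because control library 3 exceeded Ras-induced libraries 1 and 2. The log2 fold change was 0.34 (95% interval −0.61 to 1.28, SE 0.40, limma adjusted p = 0.588), an interval that holds no difference as well as a change as large as that of CXCL1. CXCL6 had 0, 0.0422 and 0.206 FPKM in control and 0.271, 0.197 and 0.324 FPKM in Ras-induced libraries, overlapping in 1 library of each group. Ras-induced library 2, whose relative depth was the lowest, held the lowest level of 7 of the 10 chemokines in its group, and the part of depth was not tested. Library 3 held the highest level of CXCL1, CXCL2, CXCL3, CXCL5 and CXCL6 among Ras-induced libraries, and of CXCL1, CXCL5 and CXCL6 among controls.

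**Figure D2:**
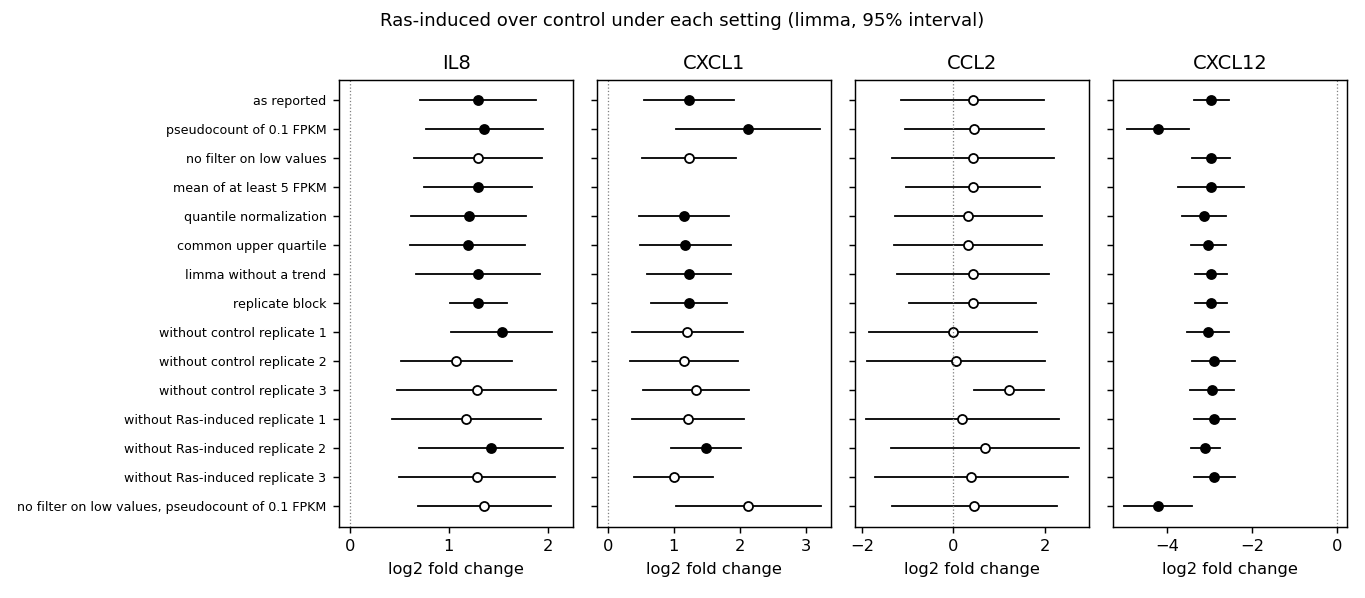
Log2 fold change of Ras-induced over control (horizontal axis) for IL8, CXCL1, CCL2 and CXCL12 as reported and under each alternative setting (vertical axis), with 95% intervals; filled points have an adjusted p of at most 0.05, and a gene has no point where a filter left it out. CXCL12 is filled in every setting, CCL2 in none, and IL8 and CXCL1 lose their call in several settings while staying above 0.

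CXCL12 (SDF-1), the stromal ligand of CXCR4, fell to near the lower end of the tested genes. The control libraries had 9.47, 11.6 and 11.1 FPKM and the Ras-induced libraries 0.354, 0.832 and 0.355 FPKM. The highest Ras-induced library lay far below the lowest control. The control mean was 10.7 ± 1.12 FPKM and the Ras-induced mean 0.514 ± 0.276 FPKM (SD, n = 3 each), 20.9-fold lower. The fibroblast markers THY1 and COL1A2 were lower in the same libraries, and their part in this result was not tested. CXCL12 had exceeded 46.7% of tested genes in control cells and exceeded 1.35% in Ras-induced cells. It was called lower in 14 of 14 alternatives, with an adjusted p between 0.000746 and 0.0120 and a log2 fold change between −4.22 and −2.89.

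CCL2 (MCP-1), a monocyte attractant that fibroblasts secrete, was the other abundant chemokine, and its level did not separate the groups. It had 10.4, 11.5 and 61.0 FPKM in control and 36.98, 18.3 and 28.1 FPKM in Ras-induced libraries. Control libraries 1 and 2 lay below all Ras-induced libraries, and control library 3 lay above all of them. The means were 27.6 ± 28.9 and 27.8 ± 9.37 FPKM (SD, n = 3 each), with a log2 fold change of 0.42 (95% interval −1.15 to 1.99, SE 0.66, limma adjusted p = 0.688). Without control library 3 the log2 fold change was 1.22 (adjusted p = 0.0608), without control library 1 it was −0.0032, and without control library 2 it was 0.059. Control library 3 was also the highest control for CXCL1, CXCL5 and CXCL6, whereas IL8 and CXCL12 had levels there between those of the other controls.

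CCL7 and CCL20 were listed at very low levels. CCL7, which shares CCR2 with CCL2 and lies next to it on chromosome 17, had 0, 0.203 and 0 FPKM in control and 0.426, 0.345 and 0.297 FPKM in Ras-induced libraries. These groups did not overlap, but the unfiltered fit did not call the gene (adjusted p = 0.0929). CCL20 had 0, 0.380 and 0 FPKM in control and 0.106, 0 and 0.0959 FPKM in Ras-induced libraries, with its highest value in control library 2. In all, 5 of the 10 chemokines were higher and 1 was lower in every Ras-induced library than in every control. Among the tested genes 27.1% were higher and 12.8% lower in that sense, and among genes with a mean above 0 and under 1 FPKM 5.73% were higher and 5.02% lower.

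The summed level of the 10 chemokines was 39.0, 33.7 and 87.2 FPKM in control and 80.6, 49.2 and 71.7 FPKM in Ras-induced libraries. The sums overlapped, with CCL2 alone giving 61.0 FPKM of that of control library 3. The shares of CXCL12 and of the ELR chemokines in the sum did not overlap between groups. ELR chemokines made up 49.0%, 29.7% and 17.4% of it in control and 53.0%, 60.5% and 59.7% in Ras-induced libraries. CXCL12 made up 24.3%, 34.5% and 12.7% in control and 0.440%, 1.69% and 0.494% in Ras-induced libraries. The ratio of summed ELR chemokines to CXCL12, both in FPKM, was accordingly 2.01, 0.861 and 1.37 in control and 120.5, 35.8 and 120.8 in Ras-induced libraries. These sums rest mainly on IL8, CCL2 and CXCL12, and IL8 alone gave 45.4% to 54.2% of the total in Ras-induced libraries. Levels were those of cells collected in bulk, in which fewer expressing cells and less RNA per cell cannot be told apart.

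**Figure D3:**
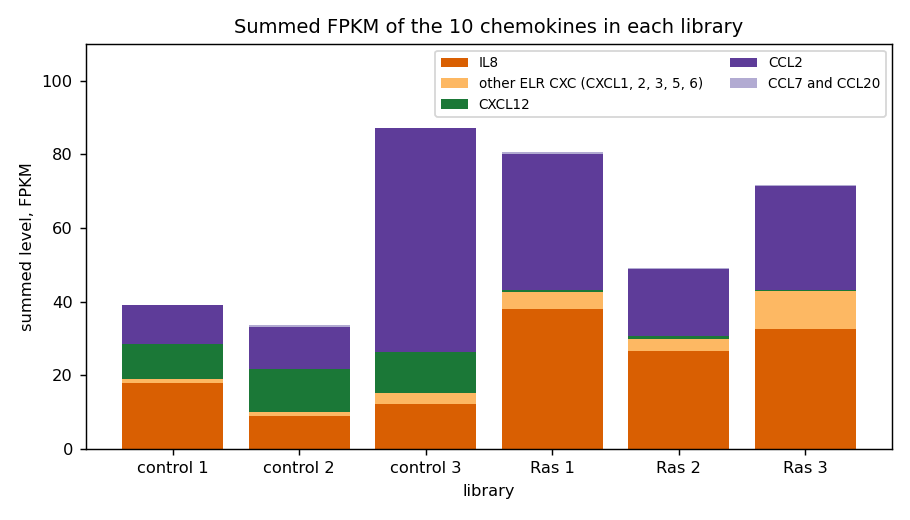
Stacked levels in FPKM (vertical axis) of the 10 chemokines in each of the 6 libraries (horizontal axis), with the colours marking single genes or groups of genes. CXCL12 is visible in the control libraries (9.47 to 11.6 FPKM) and almost absent from the Ras-induced ones (0.354 to 0.832 FPKM), and CCL2 makes up 69.9% of control library 3.

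The 6 ELR genes lie together on chromosome 4. Positions are given in GRCh37, the build of the deposited values (hg19), with the GENCODE annotation lifted to it. IL8 (ENSG00000169429) spans chr4:74606236-74609433 on the plus strand, and CXCL1 (ENSG00000163739) spans chr4:74735110-74737025 on the plus strand. CXCL2, the farthest of the cluster, lies on the minus strand, and its lower end is 356.5 kb above the IL8 start. CXCL12 (ENSG00000107562) lies at chr10:44865613-44881941 on the minus strand and CCL2 (ENSG00000108691) at chr17:32582293-32584227 on the plus strand. The neighbours of the cluster were looked at in a window from 300 kb below IL8 to 600 kb above CXCL2, chosen after the values had been seen. The platelet chemokines within the cluster, PF4, PF4V1 and PPBP, did not exceed 0.148 FPKM in any library. MTHFD2L, a mitochondrial folate enzyme just above CXCL2, had a mean of 4.48 FPKM in control and 5.99 FPKM in Ras-induced cells and was not altered (log2 fold change 0.33, SE 0.21, limma adjusted p = 0.319). Beyond it, the EGF-family ligands EREG (means 1.66 and 35.3 FPKM, log2 fold change 3.78, limma adjusted p = 0.000236) and AREG (means 1.80 and 17.0 FPKM, log2 fold change 2.63, limma adjusted p = 0.00790) were higher in Ras-induced cells. EPGN, between MTHFD2L and EREG, had 0, 0.0959 and 0 FPKM in control and 0.794, 0 and 0.678 FPKM in Ras-induced libraries. Its groups overlapped, and it was under the filter and not tested. On the other side AFP was lower in all Ras-induced libraries (0.104 to 0.280 FPKM) than in all controls (0.847 to 1.86 FPKM), and AFM was listed at 0 in all 6. AREGB, a near-identical copy of AREG 874.4 kb above the IL8 start, can share its reads, so the levels of that pair are uncertain.

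**Figure D4:**
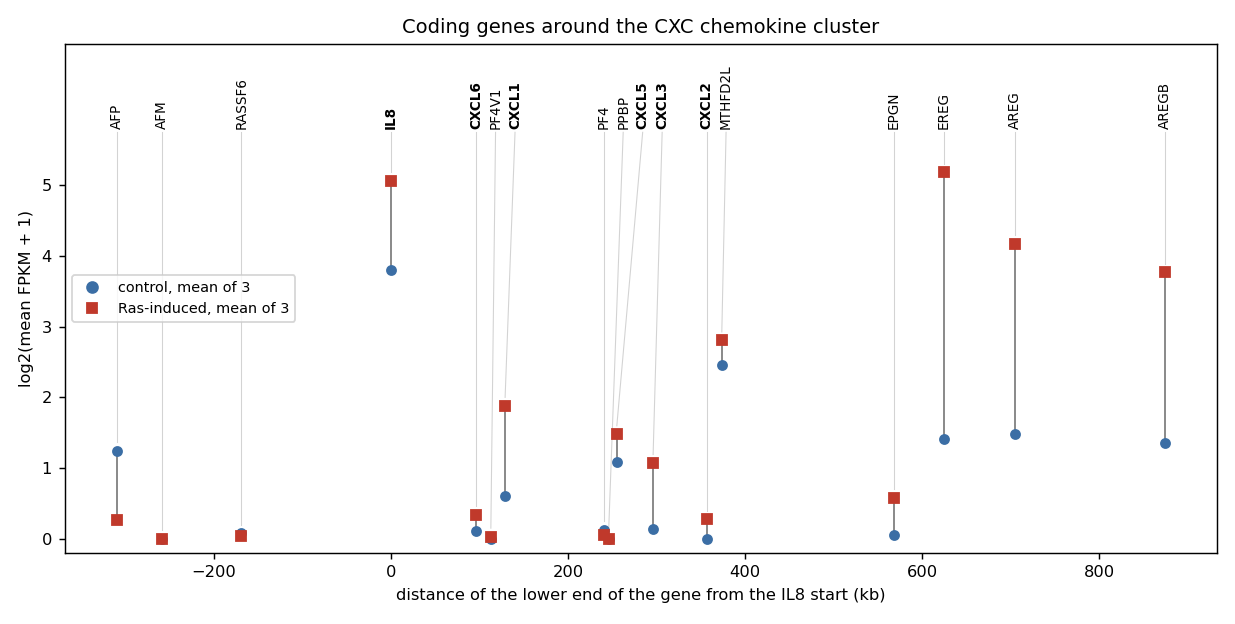
Mean level as log2(mean FPKM + 1) (vertical axis) in control (blue circles) and Ras-induced cells (red squares) of the coding genes around the CXC cluster. The horizontal axis gives the distance in kb of the lower end of each gene from the IL8 start. The chemokines of the set are in bold. IL8 and CXCL1 are higher in Ras-induced cells, MTHFD2L was not altered and EREG and AREG, 624.6 and 704.6 kb away, differ most.

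The promoters of these genes were compared because several of the ELR genes lay higher together, while CXCL12 fell. Windows from 250 bases before to 50 after the start were taken from RefSeq (GRCh38.p14) and matched for 9 of the 10 chemokines; CCL2 had no entry. Both strands were searched for the NF-kB motif, the AP-1 motif TGANTCA and the TATA box TATAAA. The NF-kB pattern used was a strict one that begins with GGG and ends with CC; looser forms of the site were not searched, so a window without a match, that of IL8 included, may hold one. The NF-kB motif was found in 6 of 9 windows (CXCL1, CXCL2, CXCL3, CXCL5, CXCL6 and CCL20), beside 5.91% of all 35116 promoter windows. The AP-1 motif was found in 2 (IL8 and CCL7), beside 7.71%, and the TATA box in 3 (IL8, CCL7 and CCL20), beside 11.5%. The 250 bases before the start are shown, 5′ to 3′, for IL8 (chr4:73740319-73740568, plus strand), CXCL1 (chr4:73869143-73869392, plus strand), CXCL5 (chr4:73998678-73998927, minus strand) and CXCL12 (chr10:44385098-44385347, minus strand), which represent the most abundant ELR gene, the 2 ELR pairs and the gene that fell. Capitals mark matches to any of the motifs.
IL8: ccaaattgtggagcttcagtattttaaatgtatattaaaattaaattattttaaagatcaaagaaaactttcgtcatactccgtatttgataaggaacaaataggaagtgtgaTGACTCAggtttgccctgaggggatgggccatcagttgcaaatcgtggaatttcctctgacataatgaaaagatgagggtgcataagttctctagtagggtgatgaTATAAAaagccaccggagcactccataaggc
CXCL1: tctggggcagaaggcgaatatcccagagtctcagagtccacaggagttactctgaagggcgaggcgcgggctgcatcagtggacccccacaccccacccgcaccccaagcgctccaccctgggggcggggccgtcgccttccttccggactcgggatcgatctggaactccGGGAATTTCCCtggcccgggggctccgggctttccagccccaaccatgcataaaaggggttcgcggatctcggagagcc
CXCL5: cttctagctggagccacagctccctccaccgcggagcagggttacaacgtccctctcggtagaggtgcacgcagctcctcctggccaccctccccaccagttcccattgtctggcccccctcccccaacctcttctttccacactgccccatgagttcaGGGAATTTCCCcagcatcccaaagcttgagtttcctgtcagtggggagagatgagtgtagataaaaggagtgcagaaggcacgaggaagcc
CXCL12: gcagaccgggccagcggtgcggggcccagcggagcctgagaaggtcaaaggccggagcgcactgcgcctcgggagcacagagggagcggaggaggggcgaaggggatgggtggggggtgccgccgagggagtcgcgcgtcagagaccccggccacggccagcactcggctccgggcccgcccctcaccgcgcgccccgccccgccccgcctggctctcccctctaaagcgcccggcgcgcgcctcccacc

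The run GGGAATTTCCC, in which matches on the plus and the minus strand overlap, was present in the 5 ELR promoters other than IL8, beginning 79 bases before the start in CXCL1 and CXCL3, 78 in CXCL2, 91 in CXCL5 and 90 in CXCL6. The windows of CXCL1 and CXCL3 were identical at 87.0% of aligned bases and those of CXCL5 and CXCL6 at 84.2%, against 51.7% between CXCL1 and CXCL5, so these 5 windows are not independent of one another. IL8 held TGACTCA beginning 137 bases before its start and TATAAA beginning 31 bases before it. CXCL12 held no match to the 3 patterns in this window. CXCL1, which was called higher, and CXCL5, which was not altered, both held the run.

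The receptors of these chemokines were hardly transcribed in the cells themselves. Of 23 chemokine receptor genes, 12 had a value above 0 in any library, none reached the filter of 1 FPKM, and the highest value was 0.331 FPKM (CCRL1, Ras-induced library 2). CXCR1, CXCR4 and CCR2 were listed at 0 in all 6 libraries. CXCR2, the receptor shared by the ELR chemokines, was listed above 0 only in Ras-induced library 2, at 0.00541 FPKM. CXCR7, the scavenging receptor of CXCL12, had 0.0306, 0.0322 and 0 FPKM in control and 0, 0.0361 and 0.0315 FPKM in Ras-induced libraries, overlapping between the groups.

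The other 38 chemokine ligands were also below the filter, at up to 0.907 FPKM. A value above 0 was listed for 15 of them in any library and 23 were at 0 throughout, so that none was tested. The highest was CCL26 (eotaxin-3, an eosinophil attractant), with 0.170, 0.180 and 0.292 FPKM in control and 0.907, 0.619 and 0.704 FPKM in Ras-induced libraries. It was the 1 ligand of the 15 above 0 whose groups did not overlap; among genes with a mean above 0 and under 1 FPKM, 5.73% were higher without overlap, so the count is near that background. The chemokine transcripts of these cells were thus largely those of IL8, CCL2 and, in control cells, CXCL12.

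Of the 16 regulators listed for chemokine transcription (NF-kB subunits, inhibitors and kinases, and C/EBP factors), 14 were tested, of which 1 was higher, 2 were lower and 11 were not altered. This count is near the 16.7% altered over all tested genes, and the median log2 fold change was −0.05, beside 0.10 over all tested genes. The gene that rose was CEBPB, which encodes C/EBPβ. It had 16.4, 11.1 and 8.75 FPKM in control and 27.8, 25.6 and 27.9 FPKM in Ras-induced libraries, without overlap (log2 fold change 1.14, SE 0.20, limma adjusted p = 0.0149). The genes that fell encode subunits of the non-canonical NF-kB pathway. RELB fell from 25.7 ± 2.07 to 17.5 ± 1.37 FPKM (log2 fold change −0.52, SE 0.10, limma adjusted p = 0.0167) and NFKB2 from 30.2 ± 5.33 to 20.1 ± 1.12 FPKM (log2 fold change −0.55, SE 0.13, limma adjusted p = 0.0354; SD, n = 3 each). CEBPB lost its call in 4, RELB in 2 and NFKB2 in 8 of 14 alternatives, mostly on leaving out a library (adjusted p up to 0.0726, 0.0641 and 0.113).

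The canonical subunits RELA and NFKB1 were not altered. RELA, the main activating subunit, had a mean of 49.8 FPKM in control and 46.2 FPKM in Ras-induced cells (log2 fold change −0.11, 95% interval −0.28 to 0.07). It was lower without overlap, at 46.9 to 52.7 FPKM in control and 45.9 to 46.5 FPKM in Ras-induced libraries. NFKB1, its p50 partner, had 23.5 and 20.1 FPKM (−0.22, −0.59 to 0.16), with groups that overlapped. REL (c-Rel), under the filter and not tested, had 0.453, 0.441 and 0.546 FPKM in control and 0.371, 0.0998 and 0.290 FPKM in Ras-induced libraries, lower without overlap. The kinase genes CHUK, IKBKB and IKBKG had mean levels between 22.7 and 26.2 FPKM, with log2 fold changes between −0.11 and 0.10, and were not altered. Among the inhibitors, NFKBIB had a mean of 20.5 and 24.2 FPKM, and BCL3, a nuclear co-regulator, 14.98 and 18.3 FPKM, neither being altered, although NFKBIB was higher without overlap. CEBPD, the other C/EBP factor, was also higher without overlap (means 2.31 and 3.75 FPKM, log2 fold change 0.49, limma adjusted p = 0.145). NFKBIA, the inhibitor IκBα, had means of 1.52 and 2.60 FPKM with groups that overlapped (log2 fold change 0.41, limma adjusted p = 0.476). TNFAIP3 (A20) had means of 4.29 and 1.96 FPKM and NFKBIE of 9.90 and 5.55 FPKM, without overlap between groups; both missed the threshold (limma adjusted p = 0.0542 and 0.0662) and passed it after quantile normalization, TNFAIP3 also with a pseudocount of 0.1 FPKM. These values concern transcripts, and NF-kB is regulated largely by protein degradation and localization.

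**Figure D5:**
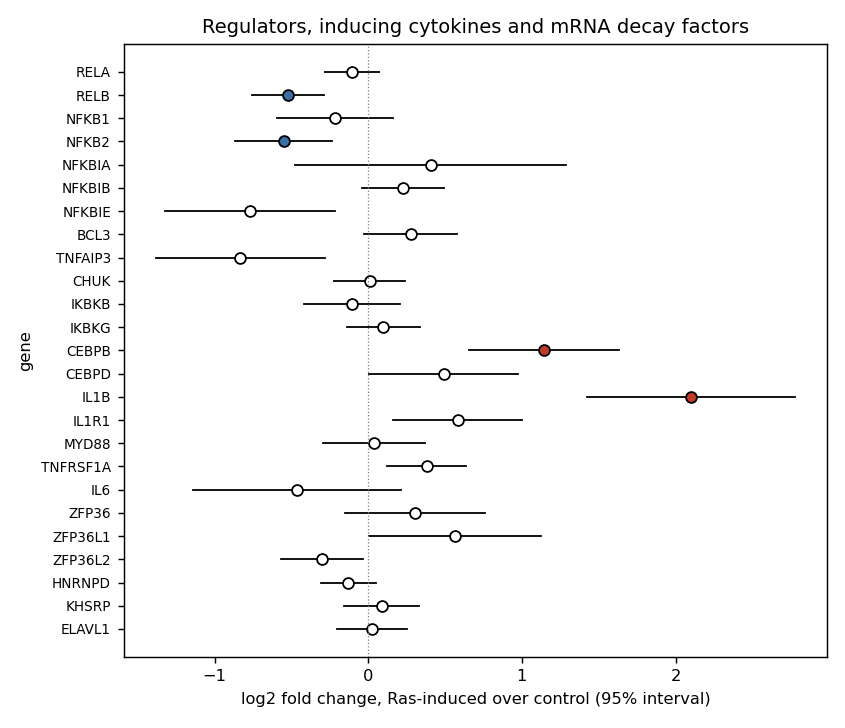
Log2 fold change of Ras-induced over control with its 95% interval (horizontal axis) for each tested regulator, inducing cytokine or receptor and mRNA decay factor (vertical axis); red points were called higher, blue points lower and open points not altered. CEBPB (1.14) and IL1B (2.10) lie to the right, RELB (−0.52) and NFKB2 (−0.55) to the left, and RELA near 0.

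Of the 9 inducing cytokines and receptors listed, 8 could be read (IL1RAP had several values per library and was left out), 5 were tested and 1 was altered, beside 16.7% of all tested genes, with a median log2 fold change of 0.38, beside 0.10. IL1B, which encodes a strong inducer of IL8 and the CXCL genes, had 0.638, 0.681 and 1.02 FPKM in control and 9.02, 3.92 and 7.91 FPKM in Ras-induced libraries. The gene passed the filter only through the Ras-induced group, and its groups did not overlap (log2 fold change 2.10, SE 0.28, limma adjusted p = 0.00679), and the call was held in 13 of 13 alternatives. As for IL8 and CXCL1, Ras-induced library 2 had the lowest level of its group. IL1R1, the signalling receptor of IL1B, had 9.06, 8.81 and 9.19 FPKM in control and 18.2, 10.7 and 13.96 FPKM in Ras-induced libraries. Its groups did not overlap, but it missed the threshold (log2 fold change 0.58, SE 0.18, limma adjusted p = 0.0679) and was called only without Ras-induced library 2. TNFRSF1A, the main TNF receptor, had means of 51.3 and 66.8 FPKM and was not altered (limma adjusted p = 0.0582); it was called higher among genes with a mean of 5 FPKM or more. IL1A, under the filter, had 0.255, 0.603 and 0.190 FPKM in control and 1.21, 0.601 and 1.21 FPKM in Ras-induced libraries, overlapping narrowly. TNF did not exceed 0.0424 FPKM, and IL6, a cytokine of the same secretory phenotype, had means of 3.39 and 2.20 FPKM (log2 fold change −0.46, 95% interval −1.14 to 0.22, limma adjusted p = 0.301).

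Chemokine mRNAs are short-lived, and 6 RNA-binding proteins that control their AU-rich elements were all tested. None was altered by limma, beside 16.7% of all tested genes. An unadjusted limma p under 0.05 was found for 2, and the share of all tested genes under that value was not computed. The median log2 fold change was 0.06, beside 0.10 over all tested genes. ZFP36L1, which promotes decay, had means of 15.6 ± 2.90 and 24.0 ± 6.86 FPKM (log2 fold change 0.57, 95% interval 0.01 to 1.12, limma adjusted p = 0.145), and ZFP36L2 had 17.4 ± 0.614 and 14.02 ± 1.87 FPKM (−0.30, −0.57 to −0.04, limma adjusted p = 0.112; SD, n = 3 each). HNRNPD, KHSRP and ELAVL1, all abundant, had log2 fold changes of −0.13, 0.09 and 0.02.

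Finally, the tested genes with the profile nearest to IL8 and to CXCL12 over the 6 libraries were found, by the root-mean-square difference between profiles of log2(FPKM + 1) centred on their own mean. Nearest to IL8 were ANKH, a pyrophosphate transporter (difference 0.160), PLK3, a stress-responsive polo-like kinase (0.178), and TBXAS1, thromboxane synthase (0.192). ANKH had 16.9, 12.4 and 14.7 FPKM in control and 40.8, 33.2 and 35.6 FPKM in Ras-induced libraries, repeating the order of libraries of IL8. Nearest to CXCL12 were GFRA1, a GDNF co-receptor (0.203), LMOD1, a smooth-muscle actin nucleator (0.229), and DCN, which encodes the matrix proteoglycan decorin (0.270). GFRA1 had 9.34, 9.48 and 13.0 FPKM in control and 0.723, 0.714 and 0.317 FPKM in Ras-induced libraries. These genes were found by their likeness over the same 6 libraries, so their difference between groups is no separate result.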

How the data were processed

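Poly(A) RNA of 6 mitotic ERRAS libraries was sequenced as paired-end reads. Per the submitters' notes, reads were trimmed with Trim Galore 0.3.0 and aligned to hg19 with Tophat2. The authors computed FPKM per gene and library with Cufflinks and deposited 1 table, whose columns name group and number only, and each was taken as 1 replicate of its group. The study states independent repeats, but the labels do not tie columns to separate cultures, so p-values measure the spread between these libraries, which may be partly technical. The authors' cuffdiff comparison (group FPKM, fold change, test statistic, p and q) was not used. A total of 18 unnamed columns, which hold extra values of 120 genes, and 1 second header line were left out. No read count was used, so depth is relative and no counting interval is given.

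The members and lists were chosen with earlier results of these data known. Genes averaging 1 FPKM or more entered a two-sided limma fit (version 3.58.1, R 4.3.3, eBayes with a trend) of log2(FPKM + 1), and p-values were adjusted over 13993 genes by Benjamini-Hochberg; the procedure was tested on simulated data. The smallest exact permutation p for 3 against 3 libraries is 0.1. Named were all 10 chemokines, HRAS, altered genes and genes averaging 10 FPKM or more from the lists, receptors of altered chemokines above 0, and the 3 genes nearest to IL8 and CXCL12. Other genes were named after their values were seen. Same-numbered libraries deviated together at correlations of −0.0027, 0.043 and 0.048 across genes, so the numbers were not taken as pairs. Coordinates are from GENCODE 44 lifted to GRCh37, in which 55021 identifiers matched. Alternatives were a pseudocount of 0.1 FPKM, no filter, a minimum mean of 5 FPKM, scaling by quantiles or to a common upper quartile, no trend in eBayes, a replicate block, each library left out, a minimum change of 1 on the log2 scale and, added after the data were seen, no filter together with a pseudocount of 0.1 FPKM.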

Additional observations from a re-analysis of the deposited data

How the results depend on the processing

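CXCL12 was called lower under every alternative run. Without the filter on low values 1518 genes were altered (960 higher, 558 lower of 29362), with a minimum change of 1 on the log2 scale there were 548 (311 higher, 237 lower), and with a library left out 860 to 1872, beside 2336 (1543 higher, 793 lower). Quantile normalization gave 1044 higher and 1109 lower genes and a common upper quartile 921 and 1101, and moved the median over all tested genes from 0.10 to 0.013 and 0.0047; both kept the 3 chemokine calls, with IL8 at 1.20 and 1.19, CXCL1 at 1.15 and 1.18 and CXCL12 at −3.14 and −3.03. Leaving out a library gave 1 to 3 altered chemokines, 0 to 3 altered regulators, 1 to 2 altered cytokines or receptors (IL1R1 added without Ras-induced library 2) and 0 to 1 altered decay factors (ZFP36L1, without the same library). A minimum mean of 5 FPKM called TNFRSF1A, and IL1B was then below the filter. The 1 remaining chemokine was CXCL12 without control library 2 or 3 or Ras-induced library 1 or 3. No filter called 1 other ligand (CCL26), and among the chemokines CXCL12 and CXCL2, of which CXCL2 entered only through the Ras-induced group. Among the regulators, quantile normalization called 5 and the fold threshold 1 (CEBPB). The log2 fold change of CXCL5 ranged from −0.051 (without Ras-induced library 3) to 0.59 and that of CCL2 from −0.0032 (without control library 1) to 1.22 over libraries left out. The cause of these changes was not tested. With the replicate number as a block, 2310 genes were altered (1466 higher, 844 lower); the altered chemokines, regulators and cytokines were the same genes, and no other ligand, receptor or decay factor was called. Each library left out leaves 2 in a group, whose spread is estimated with the other group. Levels under the filter rest on few fragments, and their depth is unknown.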
